A study of Mus musculus with 16 samples.

Results

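Siglech, Bst2, Irf8, Tcf4, Spib, Runx2, Ccr9, Tlr7 and Tlr9 are 9 mouse genes that regulate plasmacytoid dendritic cells (pDCs) or act as receptors on them. They were 9 of the 49585 genes counted, each matched by symbol to 1 Ensembl gene, and they were chosen by their CPM, a count scaled to the total of the library, for high levels in 1 of the sorted cell groups, the conventional CD4 T cells. Their levels in that group, and every contrast with it, are therefore described here without a test. All 9 passed the filter on low counts, which left 30096 genes, and that filter could be passed through the group in which they had been chosen as high.

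RNA was sequenced from 16 sorted libraries, 4 in each of 4 groups, all from mice of BALB/c background carrying Foxp3IRES-GFP, a reporter allele that marks cells expressing Foxp3, the lineage factor of regulatory T cells (Treg). Pregnant uterine Treg were CD4+Foxp3+ uterine cells labelled CD25-, taken between days 6 and 8 of pregnancy by their stage label, from pools of 3 to 8 mice, while the 4 sample titles read E6-E8, E6-E9, E6-E10 and E6-E11, a range that differs from the stage label. Uterine Treg were CD4+Foxp3+CD25- cells of the non-pregnant uterus, and lymph node Treg were CD4+Foxp3+CD25+ cells of the paraaortic lymph nodes of non-pregnant mice. The CD4conv group held CD4+Foxp3- cells of the non-pregnant uterus, and each non-pregnant library was a pool of 20 mice. Pregnant uterine Treg and CD4conv were sequenced in batch 1, and both other groups in batch 2, so comparisons of pregnant with non-pregnant uterine Treg, and of non-pregnant Treg with CD4conv, cannot be told apart from batch. Pregnant uterine Treg and CD4conv share a batch but also differ in pregnancy and in the number of mice per pool. Lymph node Treg and CD4conv also differ in tissue. The age of the mice is not given in the sources used here.

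Plasmacytoid dendritic cells are innate cells of the lymphoid and myeloid border that make large amounts of type I interferon when their endosomal toll-like receptors meet nucleic acid from viruses. Their identity depends on Tcf4 (also called E2-2), an E protein that binds E-box DNA, and on partner transcription factors such as Spib, Irf8 and Runx2. In mice they are recognised by the surface proteins encoded by Siglech and Bst2, and they can carry CD4. The T cells of the sort are a different lineage, recognised by the T cell receptor and the CD3 chains.

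Levels are CPM, counts per 1000000 counts of the library. Library totals, in units of 1000000 counts, lay between 3.57 and 15.2 in pregnant uterine Treg, 2.02 and 5.62 in uterine Treg, 1.72 and 6.30 in lymph node Treg, and 7.67 and 12.3 in CD4conv. Foxp3 was measured at 192 to 814 CPM, 227 to 714 CPM and 407 to 784 CPM in the 3 Treg groups in that order, against 0.503 to 3.26 CPM in CD4conv, as the sort labels say. The libraries also held reads in 1427 olfactory and vomeronasal receptor genes that T cells do not use. Their count per exonic base served as the background of a library, and an even spread of it over all exons would take between 8.69% and 53.6% of the counts, over 30% in 5 libraries. A level is given below as a multiple of that background where it matters, since a low CPM of a long gene can lie at the background.

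The 4 regulators come first. Tcf4 (chr18:69343356-69689079, plus strand, GRCm38, with 27382 exonic bases) had 28.5, 171, 56.9 and 308 CPM in the 4 pregnant uterine Treg libraries and 51.0, 22.3, 116 and 185 CPM in uterine Treg. It had 17.3, 97.2, 130 and 58.9 CPM in lymph node Treg, against 428, 592, 476 and 257 CPM in CD4conv. The groups overlapped, because pregnant uterine Treg 4 at 308 CPM lay above CD4conv 5 at 257 CPM. Set against the background, Tcf4 lay between 1.30 and 2.96 times it in pregnant uterine Treg, 0.871 and 2.39 times it in uterine Treg, and 0.850 and 1.69 times it in lymph node Treg, against 5.36 to 28.5 times it in CD4conv, a measure on which the groups did not overlap.

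Spib encodes an Ets family transcription factor of pDCs and B cells (chr7:44525993-44532071, minus strand). It was measured at 0, 8.99, 0.856 and 0 CPM in pregnant uterine Treg, 0, 0, 10.6 and 5.44 CPM in uterine Treg, and 2.22, 1.43, 0.582 and 0 CPM in lymph node Treg, against 204, 123, 239 and 109 CPM in CD4conv. Spib was thus at or near 0 in most Treg libraries and above 100 CPM in every CD4conv library. The highest Treg value, 10.6 CPM in uterine Treg 3, was 1.35 times that library's background, and 5 of the 12 Treg libraries had no Spib count, which allows up to 3 counts, or 0.197 to 1.75 CPM over the depths of all 16 libraries.

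Irf8, an interferon regulatory factor needed for the development of several dendritic cell types and monocytes (chr8:120736358-120756694, plus strand), had 38.2, 30.5, 31.8 and 16.2 CPM in pregnant uterine Treg and 7.08, 11.4, 24.2 and 41.1 CPM in uterine Treg. Lymph node Treg had 72.4, 61.5, 46.6 and 58.4 CPM and CD4conv had 1181, 1123, 1311 and 543 CPM. All 4 CD4conv libraries lay above all 12 Treg libraries. Among the Treg, every lymph node library was above every uterine library in CPM.

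Runx2 is a Runt domain factor best known from bone, which in mice also helps mature pDCs leave the bone marrow (chr17:44495987-44814797, minus strand). Its levels were 50.4, 55.6, 53.8 and 38.3 CPM in pregnant uterine Treg, 22.7, 33.8, 36.9 and 25.2 CPM in uterine Treg and 20.3, 21.9, 31.4 and 15.4 CPM in lymph node Treg, against 217, 278, 201 and 115 CPM in CD4conv. In CPM the CD4conv libraries were the highest of the 16, and pregnant uterine Treg lay above both other Treg groups in every library. As multiples of the background Runx2 lay between 1.00 and 8.68 in pregnant uterine Treg, 1.01 and 4.10 in uterine Treg and 1.14 and 3.09 in lymph node Treg, against 7.44 to 41.5 in CD4conv, so on that scale pregnant uterine Treg overlapped every other group. Its exons share 519 bases with the antisense gene Runx2os1, and the library kits keep no strand, so reads of that stretch could come from either gene.

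The DNA just upstream of Spib and Irf8 is shown because both genes encode partners of Tcf4, and because it lets a reader see which of the letters an E protein can bind are there. Each line holds 250 bases before a start site of RefSeq, 5′ to 3′ on the gene's strand (GRCm38.p6), with every E-box, CANNTG, in capitals. Irf8 has a start at each of 2 places in that table.
Spib, chr7:44532072-44532321, minus strand: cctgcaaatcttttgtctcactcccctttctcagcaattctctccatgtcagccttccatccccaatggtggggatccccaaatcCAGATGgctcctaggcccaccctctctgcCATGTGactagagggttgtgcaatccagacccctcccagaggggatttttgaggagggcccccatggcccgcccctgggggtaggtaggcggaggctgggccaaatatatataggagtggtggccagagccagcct
Irf8, first start, chr8:120736108-120736357, plus strand: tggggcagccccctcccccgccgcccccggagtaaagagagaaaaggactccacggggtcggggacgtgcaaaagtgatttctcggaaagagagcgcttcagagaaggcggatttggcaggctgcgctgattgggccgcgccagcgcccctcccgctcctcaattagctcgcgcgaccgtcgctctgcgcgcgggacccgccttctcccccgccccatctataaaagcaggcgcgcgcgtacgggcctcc
Irf8, second start, chr8:120738389-120738638, plus strand: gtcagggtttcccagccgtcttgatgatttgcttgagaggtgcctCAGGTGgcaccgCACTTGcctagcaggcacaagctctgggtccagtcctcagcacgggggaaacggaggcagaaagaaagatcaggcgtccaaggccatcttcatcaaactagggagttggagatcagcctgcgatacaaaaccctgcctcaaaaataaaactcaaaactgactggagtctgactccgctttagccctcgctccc
Spib has 2 E-boxes there, the first Irf8 start has 0 and the second has 2, of which 1 is CAGGTG. Such letters are common. CANNTG was found in 66.2% and CAGGTG, read on both strands and contained within CANNTG, in 17.2% of the 32851 promoters of the same length, against 7 and 5 of the 8 promoters found for 7 of the 9 genes. A match describes the letters and not a bound site.

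The receptors were next. Siglech, a member of the Siglec family of lectins that in mice marks pDCs (chr7:55768178-55778925, plus strand), had 10.3, 25.3, 18.1 and 88.1 CPM in pregnant uterine Treg, 0, 17.5, 42.4 and 35.6 CPM in uterine Treg, and 1.91, 22.4, 29.1 and 10.9 CPM in lymph node Treg, against 1256, 1257, 1622 and 764 CPM in CD4conv. The lowest CD4conv library was 8.67 times the highest Treg library, pregnant uterine Treg 4. In CD4conv, Siglech averaged 325 times the background, against 5.01 times in pregnant uterine Treg, 3.46 times in uterine Treg and 2.27 times in lymph node Treg.

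Bst2, or tetherin, holds budding enveloped viruses at the cell surface, is induced by interferon, and carries the epitope of a mouse pDC antibody (chr8:71534255-71537456, minus strand). It was measured at 67.4, 61.0, 60.2 and 26.9 CPM in pregnant uterine Treg, 9.56, 35.1, 25.5 and 31.2 CPM in uterine Treg and 60.8, 32.4, 36.7 and 37.9 CPM in lymph node Treg, against 454, 639, 430 and 158 CPM in CD4conv. Bst2 was at least 6.87 times the background in all 16 libraries, so it was the member most clearly measured in Treg. Per kilobase of exon it averaged 59.6 CPM in pregnant uterine Treg, 28.0 CPM in uterine Treg and 46.5 CPM in lymph node Treg, against 466 CPM in CD4conv.

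The bases upstream of both marker genes are given for the same reason, with E-boxes in capitals for Siglech. For Bst2 the capitals mark letters read by interferon regulatory factors such as Irf8, GAAA followed by any 2 bases and GAAA again.
Siglech, chr7:55767934-55768183, plus strand: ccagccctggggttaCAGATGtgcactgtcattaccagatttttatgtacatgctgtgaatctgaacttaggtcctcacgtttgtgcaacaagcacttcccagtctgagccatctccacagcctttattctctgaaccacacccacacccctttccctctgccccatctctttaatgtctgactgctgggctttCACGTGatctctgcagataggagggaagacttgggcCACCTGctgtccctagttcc
Bst2, chr8:71537473-71537722, minus strand: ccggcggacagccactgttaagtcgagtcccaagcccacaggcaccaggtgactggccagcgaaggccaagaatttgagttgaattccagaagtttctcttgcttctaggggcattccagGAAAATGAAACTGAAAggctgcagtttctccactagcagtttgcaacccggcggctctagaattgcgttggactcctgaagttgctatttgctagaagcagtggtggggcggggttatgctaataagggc
Siglech has 3 E-boxes in this window, and 1 of them is CAGGTG on the opposite strand. Bst2 has 2 matches to these letters that overlap each other, and a match was found on either strand in 2.98% of the 32851 promoters and in none of the other member promoters found. GAGGAAGT, an Ets motif of the Spib and PU.1 type, is in 2.44% of all promoters and in 0 of these 8. The Runx letters TGTGGT are in 14% of all promoters and in 2 of these 8, Siglech and Runx2.

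Ccr9, the receptor for the gut and thymus chemokine Ccl25 (chr9:123678439-123784330, plus strand), had 27.6, 47.0, 26.2 and 106 CPM in pregnant uterine Treg, 20.9, 17.6, 53.9 and 37.6 CPM in uterine Treg and 12.5, 41.9, 55.3 and 42.7 CPM in lymph node Treg, against 651, 713, 1231 and 464 CPM in CD4conv. No Treg library reached the CD4conv range. Of its 10260 exonic bases, 2223 also belong to Slc6a20a, Gm17200 or AC165425.1, so its counts may be affected there. Its ligand Ccl25 averaged 30.3 ± 8.55 CPM in pregnant uterine Treg, 24.0 ± 10.9 CPM in uterine Treg and 23.9 ± 8.75 CPM in lymph node Treg, against 17.7 ± 13.3 CPM in CD4conv (SD, n = 4 each).

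Tlr7 senses single-stranded RNA in endosomes (chrX:167304929-167330558, minus strand). The values were 3.16, 11.9, 27.0 and 24.1 CPM in pregnant uterine Treg, 1.77, 5.34, 18.3 and 5.44 CPM in uterine Treg and 7.94, 17.2, 18.6 and 4.80 CPM in lymph node Treg, against 85.0, 101, 161 and 64.6 CPM in CD4conv. In CPM all CD4conv libraries were above all Treg libraries, and 4 of the 12 Treg libraries were below their background. As a multiple of the background, pregnant uterine Treg 3 at 9.43 lay above CD4conv 5 at 9.03. Tlr9, the endosomal sensor of unmethylated CpG DNA (chr9:106222598-106226883, plus strand), behaved differently from Tlr7. It had 0.386, 1.88, 0.856 and 0 CPM in pregnant uterine Treg, 0.354, 0, 1.27 and 2.47 CPM in uterine Treg and 0.318, 0.953, 1.16 and 0.758 CPM in lymph node Treg, against 2.51, 2.28, 5.03 and 1.95 CPM in CD4conv. Tlr9 was below the background in all 12 Treg libraries and in 3 of the 4 CD4conv libraries, so the high level by which the genes were chosen was not seen for it.

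**Figure D1:**
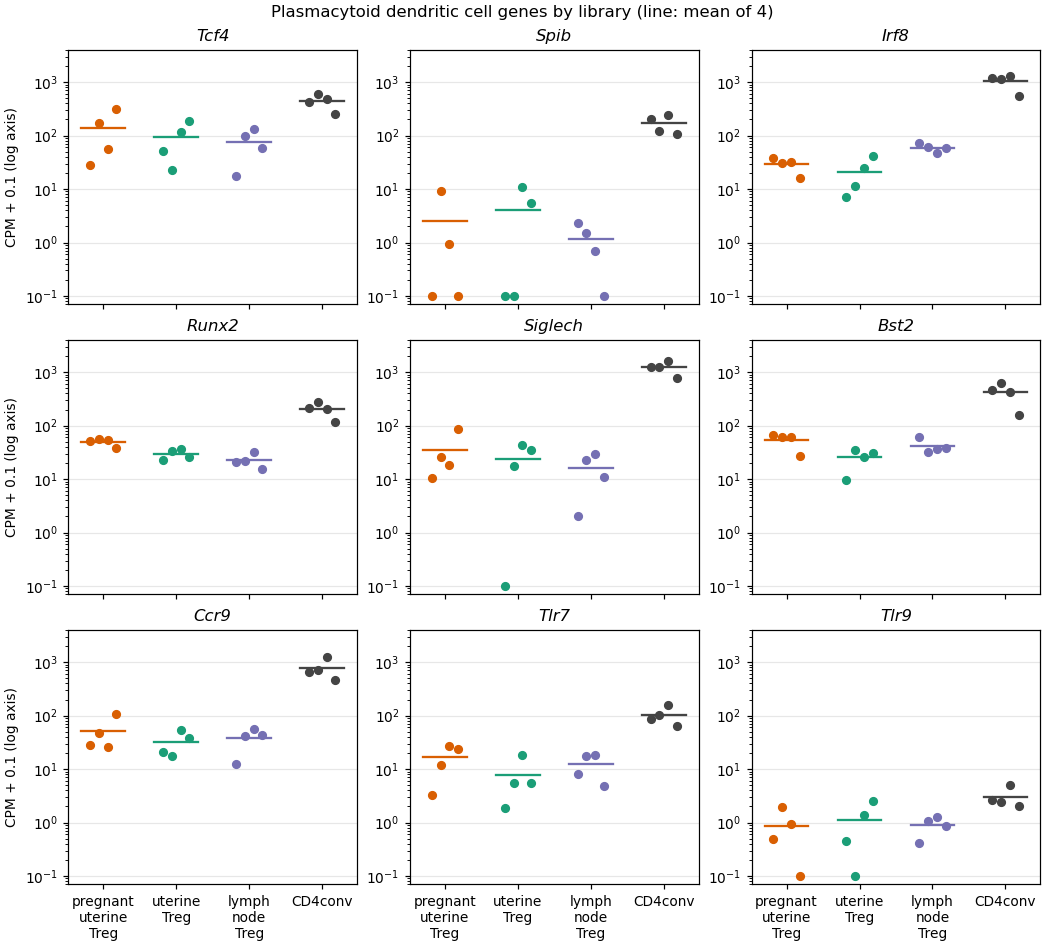
CPM of each of the 9 genes in each of the 16 libraries, on a logarithmic axis, with 1 point per library and the pregnant uterine Treg, uterine Treg, lymph node Treg and CD4conv groups side by side. The 4 CD4conv points stand above all Treg points for 7 genes, but for Tcf4 the highest Treg point, 308 CPM, lies above the lowest CD4conv point, 257 CPM, and for Tlr9 all points are at 5.03 CPM or below.

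As a description of the choice, 7 of the 9 genes had every CD4conv library above every Treg library, an arrangement that 0.904% of all 30096 tested genes showed. The exceptions were Tcf4 and Tlr9. As multiples of the background, 6 of the 9 had this arrangement, and the exceptions were Runx2, Tlr7 and Tlr9. The log2 fold changes of pregnant uterine Treg over CD4conv were -5.68 ± 0.95 for Siglech, -5.31 ± 0.71 for Irf8, -6.71 ± 1.29 for Spib and -4.37 ± 0.59 for Ccr9 (± SE, from an edgeR fit). They were -3.20 ± 0.69 for Bst2, -2.89 ± 0.69 for Tlr7, -2.31 ± 0.63 for Tcf4, -2.30 ± 0.54 for Runx2 and -2.14 ± 1.13 for Tlr9. In uterine Treg over CD4conv they ran from -6.19 ± 0.98 for Siglech, -6.19 ± 0.74 for Irf8 and -6.04 ± 1.27 for Spib, through -5.02 ± 0.61 for Ccr9, -4.45 ± 0.74 for Bst2 and -4.18 ± 0.74 for Tlr7, to -3.14 ± 0.56 for Runx2, -2.89 ± 0.64 for Tcf4 and -2.18 ± 1.18 for Tlr9. In lymph node Treg over CD4conv they were -7.14 ± 1.35 for Spib, -6.74 ± 1.01 for Siglech, -4.67 ± 0.60 for Ccr9 and -4.25 ± 0.67 for Irf8, and lay between -3.48 for Bst2 and -2.17 for Tlr9 in the other 5. Siglech and Spib thus had the greatest separation from lymph node Treg. The median of the 9 was -3.20 in pregnant uterine Treg over CD4conv, where the median of all tested genes was 0.07. It was -4.45 in uterine Treg over CD4conv, against -0.05 for all genes, and -3.48 in lymph node Treg over CD4conv, against 0.02. These 3 contrasts share the CD4conv libraries. In pooled cells, fewer cells of a type and less RNA per cell cannot be told apart.

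**Figure D2:**
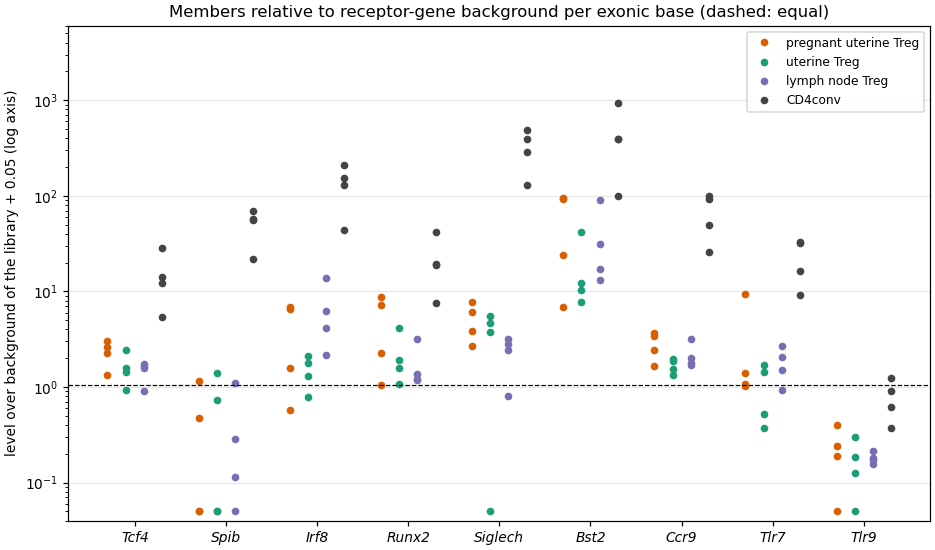
Each gene's count per exonic base divided by the background of the same library, plus 0.05, on a logarithmic axis, with 1 point per library. In Treg most genes other than Bst2 lie within a few times the dashed line of equality, and Tlr9 in CD4conv lies between 0.321 and 1.19 times the background while Siglech there lies between 129 and 491 times.

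Genes were also ranked per kilobase of exon, with the exons of all annotated transcripts of a gene joined. That length can exceed the length of any 1 transcript, which lowers the value of a gene such as Tcf4. On this scale Bst2 ranked 50 of 21734 protein-coding genes in CD4conv, with a mean of 466 CPM per kb. Siglech ranked 67 with 362 CPM per kb. Irf8 was at rank 222 with 147 CPM per kb, Ccr9 at 505 with 74.5 and Spib at 666 with 58.9 CPM per kb. Tlr7, Runx2 and Tcf4 followed at ranks 1783, 1952 and 2802, with 25.2, 23.0 and 16.0 CPM per kb, and Tlr9 was at rank 16981 with 0.846 CPM per kb. Among the 4 regulators, Irf8 thus had the highest and Tcf4 the lowest level per joined exon length. Without division by length, Tcf4 averaged 438 CPM in CD4conv, above Runx2 at 203 CPM and Spib at 169 CPM.

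Within CD4conv the genes varied together, again as a description. In CPM all 9 were lowest in CD4conv 5, while 6 were highest in CD4conv 3 and 3 (Bst2, Tcf4 and Runx2) in CD4conv 2. With the TMM library sizes of the edgeR fit, CD4conv 5 was again lowest for all 9, but Siglech and Irf8 were also highest in CD4conv 2, which then held the maximum of 5 genes against 4 in CD4conv 3. Their summed level was 4479, 4828, 5676 and 2477 CPM in CD4conv 1, 2, 3 and 5, and the highest sum among Treg libraries was 607 CPM. The ratio of Irf8 to Siglech varied by 1.33 times over the 4 libraries, from 0.710 in CD4conv 5 to 0.941 in CD4conv 1, and the ratio of Bst2 to Siglech by 2.45 times. Over the 8 genes the median of that variation was 1.64 times, beside 26.4 times for 11 macrophage markers, 16.4 times for 9 B cell markers, 5.58 times for 8 T cell markers and 2.18 times for 6 plasma cell markers.

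The genes whose distribution over the 16 libraries was most like that of Siglech were sought among 8062 protein-coding genes with at least 20 CPM on average in CD4conv. Likeness was the shared part of the 2 distributions of CPM, so a gene nearly confined to CD4conv scores high. Because the members were chosen for their CPM in CD4conv, their likeness and ranks are a description and no support. The 8 nearest were Rnase6 with 95.4%, Lefty1 with 94.6%, Irf8 with 92.7%, Lair1 with 92.7%, Klk1b27 with 92.0%, Hs3st1, a heparan sulfate sulfotransferase, with 91.6%, Klk4 with 91.2% and Pld4 with 90.9%. Of the members with enough CPM to be ranked, Irf8 was at rank 3, Spib at 12, Ccr9 at 19, Tlr7 at 66, Bst2 at 80, Runx2 at 111 and Tcf4 at 207. Among the 9 themselves, the most alike pair was Siglech and Irf8 with 92.7%, Bst2 and Runx2 shared 85.3%, and the least alike pair was Siglech and Tlr9 with 56.8%. Klk1b27 belongs to a cluster of near-identical kallikrein genes, so its reads may be divided among copies.

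Other genes of the pDC program were taken as a list of 24 signature genes that holds none of the 9. In pregnant uterine Treg, 15 of the 24 were lower than in CD4conv and 0 were higher (edgeR's quasi-likelihood test with Benjamini-Hochberg adjustment, adjusted p under 0.05), where 0.399% of all tested genes were called lower and 0.0332% higher. In uterine Treg 17 of 24 were lower, against 0.485% of all genes, and in lymph node Treg 14 of 24, against 0.591%. None was higher in either, where 0.0332% and 0.0731% of all genes were. All 24 fold changes were negative in each comparison, and their median log2 fold change was -4.29, -4.62 and -3.85 in that order, beside 0.07, -0.05 and 0.02 for all genes. The list was drawn up with earlier results of these data known, and 6 of its genes (Klk1, Cox6a2, Ly6c2, Lefty1, Smim5 and Rnase6) had been seen as high in CD4conv, so it is no independent support. Without these 6, the calls were 9, 12 and 8 of 18. Leaving out uterine Treg 1 or CD4conv 3 gave 11 calls in uterine Treg. With CD4conv 1 and 5 as the only CD4conv libraries, a setting added after the data were seen because macrophage markers were high in CD4conv 2 and 3, 4 were called in pregnant uterine Treg and 4 in uterine Treg.

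Cox6a2, a subunit of cytochrome c oxidase otherwise known from muscle, averaged 0.174 ± 0.209 CPM in pregnant uterine Treg, had no count in uterine Treg and averaged 0.0794 ± 0.159 CPM in lymph node Treg, against 143 ± 68.4 CPM in CD4conv (SD, n = 4 each). Its log2 fold change in pregnant uterine Treg over CD4conv was -10.59 ± 1.04 (± SE, from the edgeR fit). Rnase6, a secreted ribonuclease, averaged 4.57 ± 3.10 CPM in pregnant uterine Treg and 256 ± 86.1 CPM in CD4conv. The log2 difference was -6.26 ± 0.94. Cox6a2 and Rnase6 had been seen as high in CD4conv before, so both are described here without a test. Pld4, a lysosomal exonuclease that degrades single-stranded nucleic acid, was at 12.2 ± 9.98 CPM in pregnant uterine Treg and 793 ± 364 CPM in CD4conv, with a log2 fold change of -6.42 ± 1.02. Lefty1, a secreted antagonist of Nodal, was at 0.157 ± 0.313 and 36.8 ± 12.4 CPM in these groups, the lectin gene Cd209d at 3.38 ± 1.52 and 92.7 ± 39.5 CPM, and Klra17, a lectin-like receptor of the Ly49 family, at 4.54 ± 3.72 and 59.4 ± 22.2 CPM. Pld4, Cd209d and Klra17 passed the test in each of the 3 comparisons, while Lefty1, also seen as high before, is given as a description.

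Signature genes that did not pass in pregnant uterine Treg included Ugcg, a glucosylceramide synthase, with 93.7 ± 27.5 CPM in pregnant uterine Treg and 210 ± 26.3 CPM in CD4conv. Ptprs, a receptor phosphatase, had 19.4 ± 15.1 CPM in pregnant uterine Treg and 216 ± 69.0 CPM in CD4conv (adjusted p = 0.0512, edgeR) and Mctp2 had 44.9 ± 42.7 and 159 ± 83.2 CPM. Klk1, also seen as high in CD4conv before, was called in pregnant uterine and lymph node Treg but not in uterine Treg. There uterine Treg 5 alone reached 161 CPM and the mean was 40.3 ± 80.4 CPM, against 641 ± 259.6 CPM in CD4conv.

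**Figure D3:**
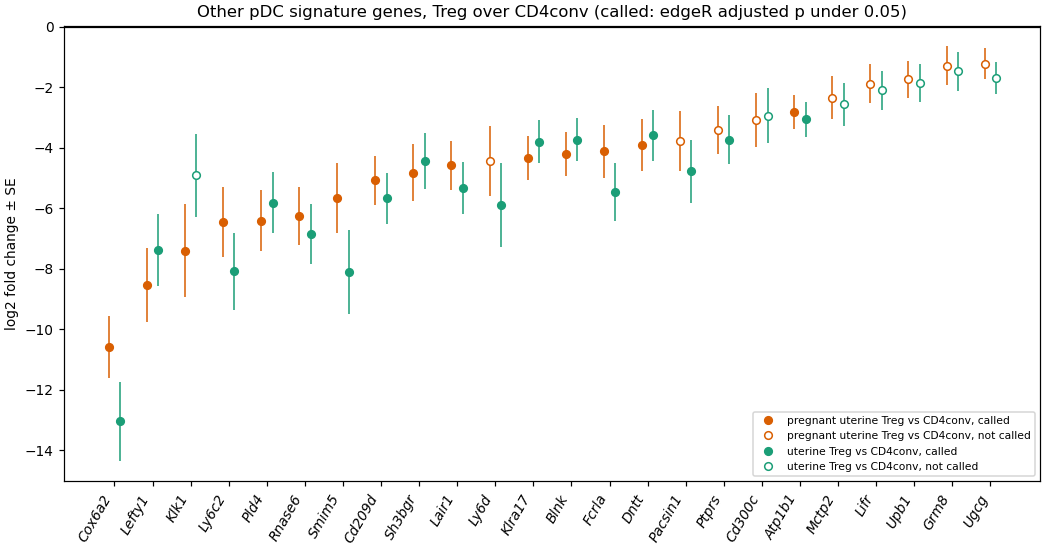
Log2 fold change with its SE of each of the 24 other pDC signature genes in pregnant uterine Treg (left of each pair) and uterine Treg (right of each pair) over CD4conv, with filled points where edgeR called the gene. Every point is below 0, from -1.23 for Ugcg in pregnant uterine Treg down to -13.05 for Cox6a2 in uterine Treg, where that gene had no count.

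The other factors of pDC development formed a list of 15 genes, and most of them were not called. Zeb2, a zinc finger repressor needed for pDC development in mice, was lower in all 3 Treg groups, with 37.9 ± 19.8 CPM in pregnant uterine Treg, 24.7 ± 16.4 CPM in uterine Treg and 17.3 ± 8.08 CPM in lymph node Treg, against 140 ± 76.6 CPM in CD4conv. Its log2 fold change in pregnant uterine Treg over CD4conv was -2.33 ± 0.54 (edgeR adjusted p = 0.0486, Benjamini-Hochberg), the only call of 15. Flt3, the growth factor receptor of dendritic cell progenitors, was also called in uterine Treg, at 27.8 ± 23.9 CPM, and in lymph node Treg, at a mean of 16.5 CPM with a range of 1.75 to 27.2 CPM, against 146 ± 68.4 CPM in CD4conv, and Spi1, which encodes PU.1, was called in lymph node Treg, at 2.73 ± 1.78 CPM, against 56.8 ± 49.5 CPM in CD4conv. The calls were 1, 2 and 3 of 15, with 0 higher, where 0.399%, 0.485% and 0.591% of all tested genes were called lower. The fold change was negative for 11 of the 15 in each comparison. The list's median log2 fold change was -0.71, -0.98 and -0.79, beside 0.07, -0.05 and 0.02 for all genes. Its sum was 675 to 1111 CPM, 810 to 1188 CPM and 795 to 938 CPM in the Treg groups, against 1408 to 1868 CPM in CD4conv, without overlap. Id2, which opposes Tcf4, did not pass the test, with 144 ± 78.0 CPM in pregnant uterine Treg and 395 ± 27.2 CPM in CD4conv. Tcf12, another E protein, was at 139 ± 48.8 and 139 ± 14.6 CPM, and Irf4 at 108 ± 72.8 and 76.6 ± 18.3 CPM. The single call in pregnant uterine Treg was lost without pregnant uterine Treg 1, 2 or 3, or without CD4conv 1, 2 or 3, and was joined by 1 more without CD4conv 5. In uterine Treg, 1 call was left without uterine Treg 1, 2 or 5 or CD4conv 2, and 0 without CD4conv 3.

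The partners of Tlr7 and Tlr9 in the endosome formed a list of 20 genes. Unc93b1, the chaperone that carries both receptors to endosomes, had 26.2 ± 18.9 CPM in pregnant uterine Treg, 45.0 ± 34.2 CPM in uterine Treg and 24.1 ± 7.36 CPM in lymph node Treg, against 620 ± 341 CPM in CD4conv, with log2 fold changes of -4.56 ± 0.94, -4.02 ± 0.92 and -4.80 ± 0.96 and edgeR adjusted p of 0.0178, 0.0417 and 0.00938. Ctsl, a cathepsin that cleaves the receptors, had 47.4 ± 28.7, 30.8 ± 27.9 and 40.7 ± 5.49 CPM in the same order, against 629 ± 213 CPM in CD4conv, and was called in all 3. The counts of calls were 2, 3 and 3 of 20 with 0 higher, against 0.399%, 0.485% and 0.591% of all genes called lower. The list's median log2 fold change was -1.07, -1.25 and -1.01. The calls besides Ctsl and Unc93b1 were Ctss in uterine Treg and Lgmn, another endosomal protease, in lymph node Treg. Ctsb, Hsp90b1 and Irf7 did not pass. Irf7, the factor that drives interferon alpha genes, had 212 ± 94.1 CPM in pregnant uterine Treg and 101 ± 25.8 CPM in uterine Treg, against 473 ± 255 CPM in CD4conv. In pregnant uterine Treg, 1 of the 2 calls was left without pregnant uterine Treg 1, CD4conv 2 or CD4conv 3 and 0 without pregnant uterine Treg 2. In uterine Treg, 1 of the 3 was left without any single uterine Treg library or without CD4conv 2 or 3.

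Tyrobp (DAP12), the adaptor through which the Siglech protein signals in mice, was lower in all 3 Treg groups. It had 5.37 ± 3.09 CPM in pregnant uterine Treg, 9.40 ± 6.24 CPM in uterine Treg and 0.679 ± 0.488 CPM in lymph node Treg, against 774 ± 418 CPM in CD4conv. Its log2 fold changes were -7.31 ± 0.94, -6.72 ± 0.92 and -10.30 ± 1.10 (edgeR adjusted p = 2.40e-04, 3.90e-04 and 3.69e-05, Benjamini-Hochberg). Macrophages and NK cells also express Tyrobp. The related adaptor Hcst did not pass, with 53.8 ± 13.4 CPM in pregnant uterine Treg and 150 ± 89.9 CPM in CD4conv.

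Relatives of Siglech, Tlr7 and Irf8 were also counted, and whether they differ from these genes was not tested. Of 8 other Siglec genes, 7 were tested and 0, 0 and 1 were called in pregnant uterine, uterine and lymph node Treg, the 1 being Siglecg, with 3.26 ± 1.96 CPM in lymph node Treg, against 45.2 ± 13.0 CPM in CD4conv. Siglecg did not pass in pregnant uterine Treg, at 9.05 ± 8.42 CPM, or in uterine Treg, at 12.7 ± 10.6 CPM, though neither group overlapped CD4conv, and the fold change was negative for 6, 7 and 7 of the 7 genes. Of 7 toll-like receptors outside the endosomal pair, and of 8 other interferon regulatory factors, 0 were called in any of the 3 comparisons. Type I interferon messages were at low levels in all groups. Of the 17 genes on that list, which include the receptor genes Ifnar1 and Ifnar2, 7 passed the filter on low counts and 0 were called. The interferon alpha gene with the highest mean in CD4conv was Ifna15, at 4.29 ± 3.90 CPM in pregnant uterine Treg, 4.13 ± 7.18 CPM in uterine Treg and 5.51 ± 4.20 CPM in lymph node Treg, against 3.64 ± 2.43 CPM in CD4conv. Ifnb1 averaged 7.67 ± 9.38 CPM in pregnant uterine Treg, 4.03 ± 2.80 CPM in uterine Treg and 10.6 ± 8.73 CPM in lymph node Treg, against 4.65 ± 3.59 CPM in CD4conv. The interferon alpha genes are close copies of each other, so their reads may be shared or lost.

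Markers of other cells in the sort were measured beside these genes. The summed level of 11 macrophage markers was 73.7 to 351 CPM in pregnant uterine Treg, 180 to 1085 CPM in uterine Treg and 32.9 to 129 CPM in lymph node Treg, against 1011, 6271, 10093 and 178 CPM in CD4conv 1, 2, 3 and 5. The sum in CD4conv 5 lay within the range of the Treg libraries. The highest Treg sums were 1085 CPM in uterine Treg 5 and then 351 CPM in pregnant uterine Treg 3. Of the 11 macrophage markers, 3, 3 and 7 were called lower in the 3 Treg groups, where 0.399%, 0.485% and 0.591% of all genes were. The fold change was negative for 10, 10 and 11 of them, with median log2 values of -4.55, -4.25 and -6.24. For the 24 pDC signature genes these medians were -4.29, -4.62 and -3.85. No macrophage marker was at 0 in a whole group, and the part of these markers in the results was not tested. B cell markers, which matter because B cells also express Spib, Blnk and Tlr9, summed to 54.6 to 172 CPM in pregnant uterine Treg, 42.7 to 166 CPM in uterine Treg and 50.3 to 196 CPM in lymph node Treg, against 34.9 to 124 CPM in CD4conv, and 0 of 8 tested were called.

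Plasma cell markers summed to 159 to 334 CPM, 187 to 396 CPM and 204 to 400 CPM in pregnant uterine, uterine and lymph node Treg, against 452 to 1315 CPM in CD4conv. Of the 6, Mzb1, which pDCs also express, was called in all 3 groups and Sdc1 in lymph node Treg. Among all genes, 0.399%, 0.485% and 0.591% were called lower in the 3 Treg groups. The fold change was negative for 4, 4 and 6 of the 6 plasma cell markers, with median log2 values of -2.123, -2.235 and -2.656. Conventional dendritic cell markers summed to 513 to 1229 CPM, 657 to 1201 CPM and 1682 to 4919 CPM in the Treg groups, against 908 to 1199 CPM in CD4conv, but Ccr7, which T cells also express, made up most of the Treg sums. Without Ccr7 the other 8 markers summed to 66.2 to 282 CPM in pregnant uterine Treg, 31.3 to 162 CPM in uterine Treg and 20.5 to 132 CPM in lymph node Treg, against 314 to 872 CPM in CD4conv, without overlap. Cd209a was called lower in all 3 Treg groups, Clec10a in pregnant uterine and lymph node Treg, and Flt3 in uterine and lymph node Treg, and their part in the results was not tested. Of the 9 dendritic cell markers, Ccr7 included, 6, 8 and 6 had a negative fold change, with median log2 values of -2.485, -2.760 and -3.166. T cell markers summed to 1358 to 5720 CPM, 2093 to 6442 CPM and 3846 to 5479 CPM in the Treg groups, against 1706 to 4013 CPM in CD4conv, so T cell messages were present in all groups and 0 of 8 were called. Monocyte markers, which include Ly6c2 of the signature list, summed to 319 to 847 CPM, 244 to 555 CPM and 86.2 to 138 CPM in the Treg groups, against 470 to 5916 CPM in CD4conv. Of the 8, 2, 1 and 4 were called lower and all 8 fold changes were negative in each comparison, with medians of -2.78, -2.76 and -4.36. NK cell markers summed to 15.8 to 51.5 CPM, 18.8 to 30.2 CPM and 18.7 to 35.5 CPM in the Treg groups, against 71.5 to 87.3 CPM in CD4conv, and 0 of the 6 tested were called.

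**Figure D4:**
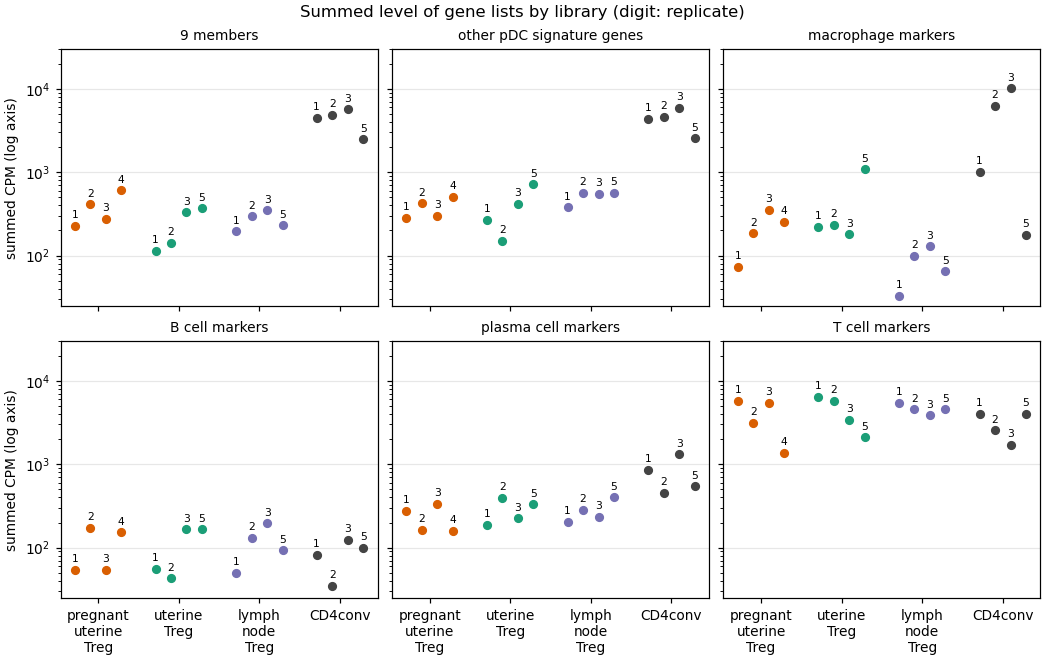
Summed CPM of the 9 genes, the 24 other pDC signature genes and marker lists of other cells in each library, on a logarithmic axis, with pregnant uterine Treg, uterine Treg, lymph node Treg and CD4conv side by side. The 9 genes sum to at least 2477 CPM in CD4conv and at most 607 CPM in Treg, while the macrophage sum in CD4conv spans 178 to 10093 CPM.

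The comparisons among Treg did not enter the choice of the 9 genes and were tested. None of the 9 was called in any of the 3 (edgeR with Benjamini-Hochberg adjustment over 30096 genes), where 0% of all genes were called either. Of the 9, Spib and Tlr9 entered this fit only through CD4conv, the group they were chosen for, so their results here are no test. In the fit of the 12 Treg libraries alone, 7 members were tested and 0 were called. At an unadjusted p under 0.05, edgeR found 822, 905 and 934 genes in pregnant uterine over uterine Treg, uterine over lymph node Treg, and pregnant uterine over lymph node Treg, among them 0, 1 and 1 of the 9. DESeq2 called 12, 30 and 45 genes in these comparisons, and 0 of the 9. With edgeR on the genes above background alone, which hold 5 of the 9, 0 genes were called in the first comparison, 44 higher and 17 lower in the second, and 74 higher and 37 lower in the third, and 0 of the 5.

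The question of pregnancy is addressed by pregnant uterine Treg over uterine Treg, which crosses the sequencing batches. The fold change was positive for 8 of the 9 genes, with a median log2 value of 0.64 beside 0.11 for all genes. That count was 7 with RLE size factors, where Tlr9 turned negative, and 7 to 9 over all settings that tested the 9. Spib and Tlr9 passed the filter on low counts only with CD4conv in the fit. With the 12 Treg libraries alone, all 7 members tested were positive, with a median of 0.79. In the fit of all 16 libraries Tlr7 had the highest value, 1.30 ± 0.67, with a 95% interval of -0.01 to 2.60 and unadjusted p = 0.0632 (edgeR). Pregnant uterine Treg 3, however, held 410 of the 594 Tlr7 counts of its group, and the other 3 libraries were at 0.966 to 1.36 times the background. Without pregnant uterine Treg 3 the Tlr7 value was 0.47, without uterine Treg 3 it was 1.95, and with libraries under 30% background it was 2.09. Bst2 was next at 1.25 ± 0.65, with an interval of -0.03 to 2.52. Runx2 averaged 49.5 ± 7.76 CPM in pregnant uterine Treg and 29.7 ± 6.81 CPM in uterine Treg (SD, n = 4 each), and was the only member whose groups did not overlap in CPM, as for 1.03% of all genes, while they overlapped as multiples of the background. Its log2 fold change was 0.84 ± 0.52, with an interval of -0.19 to 1.86.

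The question of tissue is addressed by uterine Treg over lymph node Treg, both in batch 2, and the labels also differ in CD25. Uterine Treg averaged 20.9 ± 15.3 CPM of Irf8, against 59.7 ± 10.6 CPM in lymph node Treg (SD, n = 4 each), without overlap, as for 3.4% of all genes. As multiples of the background, Irf8 lay between 0.739 and 2.07 in uterine Treg. In lymph node Treg Irf8 lay between 2.12 and 13.8, so on that scale the gap between the groups was narrow. Its log2 fold change was -1.94 ± 0.62, with a 95% interval of -3.16 to -0.73 and an unadjusted p of 0.00425 by edgeR, and it failed the Benjamini-Hochberg correction with adjusted p = 0.9999. The lower direction held in 4 of 4 uterine libraries. The value was -1.25 in genes above background (edgeR adjusted p = 0.2602), -2.74 with libraries under 30% background, and -2.29 to -1.54 when single libraries were left out. The 8 other fold changes lay between -0.97 for Bst2 and 1.10 for Spib. The median of the 9 was -0.01, the value of Tlr9, beside -0.06 for all genes. It lay between -0.94 and 0.18 over the settings that tested all 9. With the 12 Treg libraries alone, which left out Spib and Tlr9, 3 of the 7 tested were positive and their median was -0.30.

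In pregnant uterine Treg over lymph node Treg, which also crosses batches, 8 of 9 fold changes were positive. Their median was 0.43, the value of Spib, beside 0.06 for all genes. With the 12 Treg libraries alone, which left out Spib and Tlr9, 6 of the 7 tested were positive and the median was 0.50. Over the settings that tested all 9, 6 to 8 were positive. Irf8 was again the exception, at -1.06 ± 0.60 with an interval of -2.23 to 0.11, and its groups did not overlap in CPM. Runx2 was at 1.18 ± 0.53, with an interval of 0.14 to 2.21 and unadjusted p = 0.0351 (edgeR), and its groups did not overlap in CPM either, as for 4.29% of all genes. As multiples of the background, the groups overlapped for both genes. Neither passed the Benjamini-Hochberg correction, with adjusted p = 0.9999 by edgeR. The intervals of the other 7 genes all reach beyond 1 on the log2 scale, so a difference of that size is not excluded for them. The 3 comparisons share libraries and are not independent of each other.

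**Figure D5:**
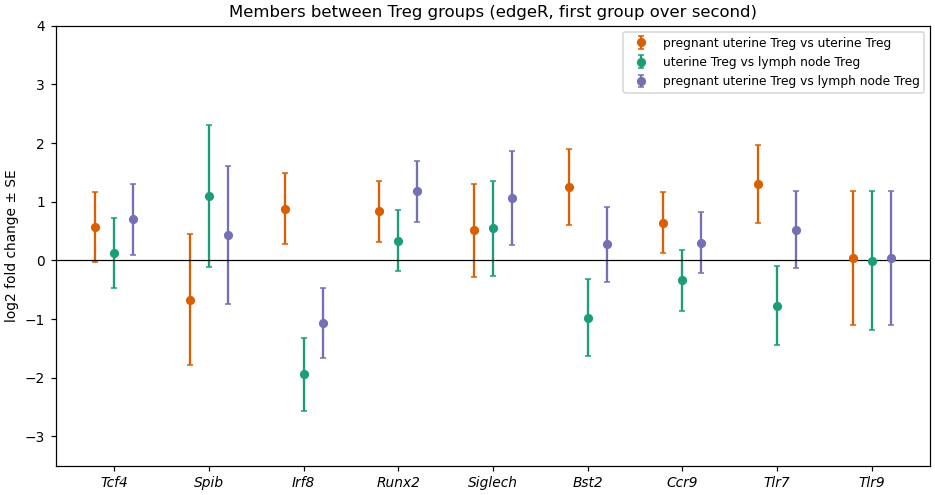
Log2 fold change with its SE of each of the 9 genes in pregnant uterine over uterine Treg, uterine over lymph node Treg, and pregnant uterine over lymph node Treg, from edgeR. Irf8 lies below 0 in both comparisons with lymph node Treg, at -1.94 and -1.06, and Runx2 above 0 in all 3, and no gene passed the adjusted threshold.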

How the data were processed

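Values are counts of reads per gene as deposited by the authors, not normalized. Per the submitters' processing notes, Trimmomatic, HISAT2, SAMtools, featureCounts and DESeq2 were used with build GRCm38, with no versions stated. Per the labels' protocols, libraries were made with SMART-Seq v4 and Nextera XT kits from pooled mice and read as pairs of 150 bp. The deposited table and the 16 single-library files held equal counts. Symbols and coordinates came from GENCODE M21.

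Counts were tested with edgeR 4.0.16 in R 4.3.3 by its robust quasi-likelihood test after TMM scaling and filterByExpr, in 1 fit of the 16 libraries; p-values were adjusted by Benjamini-Hochberg and called under 0.05. The SE is the log2 fold change divided by the root of its F statistic, and normal 95% intervals use it. The fit was tested on simulated counts. Alternatives were DESeq2 1.42.0, RLE size factors, no filter, 10 counts in 8 libraries, CPM scaled by TMM library size, genes above 5 times the background, a replicate block, single libraries left out, Treg alone, libraries under 30% background, and CD4conv 1 and 5 alone; both last were added after seeing the data. The members, lists and tests were chosen with earlier results of these data known. From each list, up to 6 called genes with the lowest adjusted p and up to 3 uncalled genes with the highest mean are named. Floors of 3 counts cover counting error only.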

Additional observations from a re-analysis of the deposited data

Results flagged for a closer look

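Spib in pregnant uterine Treg 2 was far from the other 3 libraries of its group, at 8.99 CPM beside 0, 0.856 and 0 CPM. The gap was 0.905 of the group's range, above Dixon's 95% critical value for 4 samples. It was the 1 such case among the 36 groups of 4 values examined (9 genes in 4 groups), and chance gives about 1 in 20. That value is 1.10 times the background of the library, and without the library the log2 fold change of Spib in pregnant uterine Treg over CD4conv was -8.71, beside -6.71 with it.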

How the results depend on the processing

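Among the values recomputed singly (each member over CD4conv, and Bst2, Tlr7, Irf8 and Runx2 in the Treg comparisons that describe them), no direction reversed. Other members changed sign between Treg groups: 7 to 9, 2 to 5 and 6 to 8 of the 9 were positive in pregnant uterine over uterine, uterine over lymph node, and pregnant uterine over lymph node Treg. None of the members tested was called between Treg groups under any alternative, where the fit of the 12 Treg libraries tested 7 of the 9. The median log2 fold change of the members in pregnant uterine Treg over CD4conv was -4.53 over the 5 members above background and -2.40 with CD4conv 1 and 5 alone, and that in lymph node Treg over CD4conv was -4.39 above background, where fewer members are counted. With CD4conv 1 and 5 alone the signature list gave 4 and 4 calls in pregnant uterine and uterine Treg, and above background 10 of 13 tested in uterine Treg. Development calls in pregnant uterine Treg numbered 0 with RLE size factors, 4 with DESeq2, 2 with the replicate block, 2 above background and 0 with CD4conv 1 and 5 alone, and in uterine Treg 1 with RLE and 0 with CD4conv 1 and 5 alone. Endosomal pathway calls in pregnant uterine Treg numbered 5 with DESeq2, 7 above background and 0 with CD4conv 1 and 5 alone, and in uterine Treg 5, 5 and 1. The cause was not tested, apart from the smaller number of genes or libraries. Leaving out 1 library at a time gave member medians of -3.73 to -2.71, -4.97 to -4.01 and -4.09 to -3.24 in pregnant uterine, uterine and lymph node Treg over CD4conv. The signature calls were 10 to 16 and 11 to 16, development calls 0 to 2 and 0 to 3, and endosomal calls 0 to 3 and 1 to 3, in pregnant uterine and uterine Treg. Of 531 values of single members, 508 were labelled the same and 23 moved. For values over CD4conv and for group levels, the same meant a shift smaller than the spread. Between Treg groups it meant only that direction and call did not change, whatever the size of the shift. RLE moved the median of all genes by more than 0.1 on the log2 scale in 3 comparisons. These were uterine Treg over CD4conv, to 0.14, beside -0.05, and pregnant uterine Treg over CD4conv, to 0.20, beside 0.07. The third was uterine over lymph node Treg, to 0.06, beside -0.06.

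Restricting the test to genes above background changed the split of all calls in pregnant uterine Treg over CD4conv to 194 higher and 202 lower, beside 10 and 120. Same-numbered libraries deviated together with correlations of -0.40 to 0.40, over 0.1 in 8 of 21 pairs, so the numbers were not taken to pair the libraries. With the replicate block, the member medians were -3.52, -4.37 and -3.33 over CD4conv, and the signature calls 13 and 17. Depth and the spread between pools limit the Treg comparisons, and with Tlr9 at 0 to 50 counts per library, no difference in it can be read.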
